A study of Mus musculus with 6 samples.

Results

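The genes that carry glucose through glycolysis to lactate, into the mitochondrion and through the pentose phosphate pathway were examined in D10 T cells after 24 h in the cold. The members were the 33 listed genes whose symbol equals a row of the deposited table of 41079 genes, and each of the 33 was found once. They cover glucose uptake (Slc2a1, Slc2a3), the steps from hexokinase to aldolase, the kinases that set phosphofructokinase activity, the steps from triose phosphate to pyruvate, lactate formation and transport, pyruvate entry, the pentose phosphate pathway and the regulator Hif1a. D10 (D10.G4.1) is a cloned mouse helper T cell line, labelled CD4+, that recognises a conalbumin peptide. A single clone stands for T cells here. The 3 non-acclimated libraries came from cells kept 24 h at 37°C, and the 3 cold-acclimated libraries from cells kept 24 h at 26°C. RNA was poly(A)-selected and sequenced from paired ends. The labels count separate extraction batches as biological replicates without saying which library came from which batch.

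Glycolysis splits glucose into pyruvate and yields ATP without oxygen. Lactate dehydrogenase turns pyruvate into lactate, which leaves the cell through monocarboxylate transporters, while the pyruvate dehydrogenase complex feeds pyruvate to the mitochondrion. The pentose phosphate pathway branches off at glucose 6-phosphate and supplies NADPH and ribose for nucleotides. Activated and dividing T cells are known for a high glycolytic rate, and several of these genes are textbook targets of the transcription factor HIF-1.

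Levels are given as TPM, a length-scaled share of the library's transcripts that divides reads by gene length, so that levels of different genes can be set side by side. Reads counted on genes, worked back from the TPM, came to 16899628 to 31290854 a library. The T cell markers were present, with 9 of 9 at a mean of at least 1 TPM and a summed level of 2645 to 4308 TPM at 37°C and 3121 to 4029 TPM at 26°C. Cd4 was an exception within replicates 1 and 2, where it was listed at 0.0351 to 1.30 TPM, against 310 TPM (37°C) and 328 TPM (26°C) in replicate 3, so 4 of the 6 libraries went against the label CD4+ at this gene. Other T cell markers set replicate 2 apart. Its values at 37°C and 26°C were 15.0 and 12.8 TPM for Trac, against 129 to 207 TPM in replicates 1 and 3. They were 64.3 and 78.6 for Cd3d (against 240 to 332), 7.35 and 5.61 for Cd28 (27.9 to 54.5) and 245 and 223 for Lck (339 to 732). Gata3 was higher there, at 726 and 751 TPM (against 387 to 638). Of 7 B cell markers, none reached a mean of 1 TPM and Ms4a1 was at 0. Of 6 macrophage markers only Lyz2 did, at up to 14.8 TPM, with Cd14 at 0. Of 4 erythroid markers Hba-a1 did, at 60.8 to 485 TPM, with Hbb-bs at 0. Of 3 fibroblast markers Col1a1 did, at 1.52 to 4.53 TPM, with Col1a2 and Dcn at 0. The proliferation genes Mki67 and Top2a, summed, lay at 646 to 760 TPM at 37°C and 76.5 to 451 TPM at 26°C. Their part in the results given here was not tested. Results that rest on replicate 3 are given with and without it.

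Summed as listed, the members took a like share of the TPM at both temperatures, though the levels of some are uncertain, as given below. The ratio of paralogs did not overlap between the temperatures for 4 of 8 pairs. How often the ratios of other genes did so was not counted. No member was called higher at 26°C and 2 were called lower, Pfkm and Pdk1, out of 31 with a mean of at least 1 TPM. To be called, a gene needed a limma adjusted p under 0.05 on log2(TPM + 1) together with a change of 1 or more on the log2 scale in either direction. Among the 12227 genes tested, 2.63% were called higher and 16.0% lower. The share of members called lower, 6.45%, was thus below the background, and 3 members had an unadjusted limma p under 0.05 in the higher direction and 3 in the lower. The median log2 fold change of all genes was -0.34 in TPM, and that of the members was -0.07, with 24 of 31 above the all-gene median. Rescaling each library by its median of ratios brought the all-gene median to 0.02 and the members' median to 0.33. After quantile normalization these medians were 0.03 and 0.06, with 16 of 31 members above the all-gene median. With no filter on low values 17 of 33 members were above it. Every fold change is therefore best read against these medians, and the value after median of ratios scaling is given where it alters a sign or a call. In RNA from whole cultures, fewer cells of a kind and less RNA per cell cannot be told apart.

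**Figure D1:**
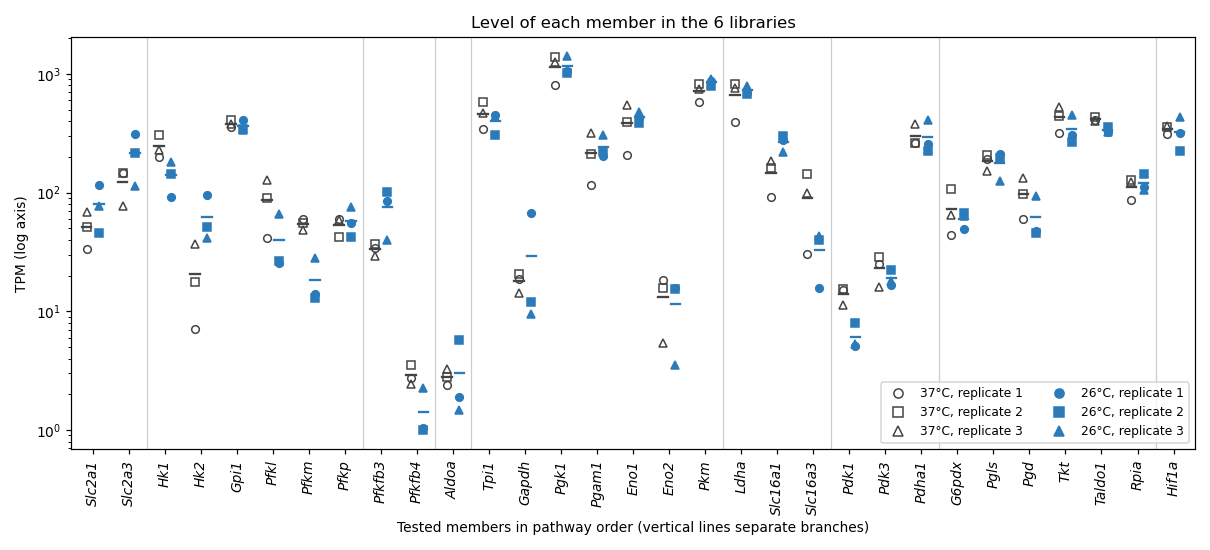
Level of the 31 tested members in each library in TPM on a log axis, in pathway order. Open grey symbols are the 3 libraries at 37°C, filled blue symbols the 3 at 26°C, symbol shape gives the replicate number, and short lines are group means. The groups of Hk2, Pfkfb3 and Slc16a1 stand apart with 26°C higher, and those of Hk1, Pfkm, Pfkfb4, Pdk1 and Taldo1 with 26°C lower in TPM, although after median of ratios scaling the fold change of Taldo1 was 0.10.

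After median of ratios scaling 3 members were called higher, Hk2, Pfkfb3 and Slc16a1, and 1 lower, Pfkm. The background was then 6.56% higher and 8.79% lower. With the replicate number as a block, in TPM, Pfkfb3 was called higher and Pfkm, Pfkl, Slc16a3 and Pdk1 lower, against a background of 3.75% and 21.9%. The groups did not overlap for 3 members higher at 26°C and 5 lower, against 9.69% and 31.4% of all tested genes, so neither share of the members (9.68% and 16.1%) was above the background. With both libraries of replicate 3 left out, Hk2, Pfkfb3 and Slc16a1 were called higher and Hk1, Pfkm, Pfkfb4 and Pdk1 lower, with a background of 5.34% and 25.3%. Voom on the recovered reads gave the same 3 and 1 members as median of ratios scaling (background 6.27% and 9.18%). The block and that scaling together gave 4 higher, with Slc2a3 added, and 1 lower (background 8.88% and 12.6%), and quantile normalization gave 0 higher and Pfkm lower (background 5.98% and 6.26%). When any of the 4 libraries of replicates 1 and 2 was left out alone, no member was called. The background then fell to between 0.48% and 0.64% higher and between 2.82% and 4.91% lower.

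**Figure D2:**
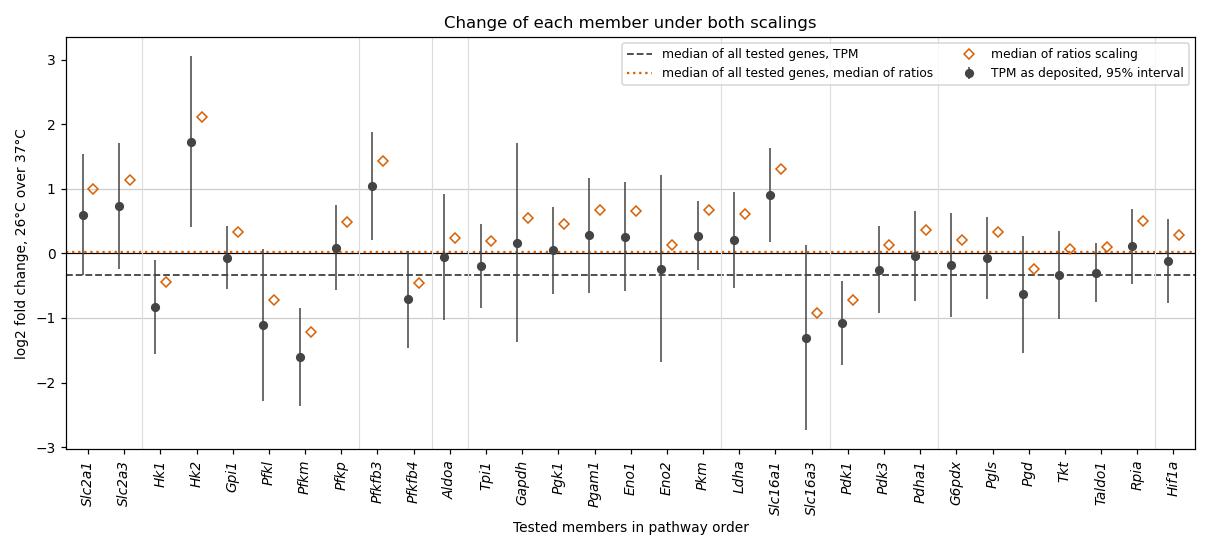
Log2 fold change of 26°C over 37°C for each tested member. Grey circles are limma estimates on TPM with 95% intervals, orange diamonds are the estimates after median of ratios scaling, and horizontal broken lines are the medians of all tested genes at -0.34 (TPM) and 0.02 (median of ratios). Pfkm and Pdk1 were called lower in TPM, and only Pfkm stayed called after median of ratios scaling.

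The promoters of 4 members are shown, at steps where the ratio of paralogs did not overlap between the temperatures, because members of this pathway are textbook HIF-1 targets. The core of the HIF-1 element is ACGTG or GCGTG, and letters in capitals mark either core on either strand. ACGTG lies within the E-box CACGTG, so a hit may be both. The 250 bases before the transcript start are printed in the direction of transcription, from RefSeq (GRCm38.p6).
Hk2, chr6:82774455-82774704, minus strand: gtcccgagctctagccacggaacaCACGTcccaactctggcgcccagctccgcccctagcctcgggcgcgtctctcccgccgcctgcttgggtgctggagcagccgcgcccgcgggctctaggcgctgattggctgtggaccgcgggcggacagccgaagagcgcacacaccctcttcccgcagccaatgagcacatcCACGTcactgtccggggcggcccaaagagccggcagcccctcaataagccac
Slc16a1, chr3:104638414-104638663, plus strand: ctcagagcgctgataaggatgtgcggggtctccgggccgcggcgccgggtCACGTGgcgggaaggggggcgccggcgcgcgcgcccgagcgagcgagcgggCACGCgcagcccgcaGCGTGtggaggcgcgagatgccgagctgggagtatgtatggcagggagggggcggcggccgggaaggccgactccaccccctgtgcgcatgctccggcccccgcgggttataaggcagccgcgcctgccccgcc
Slc16a3, chr11:120948817-120949066, plus strand: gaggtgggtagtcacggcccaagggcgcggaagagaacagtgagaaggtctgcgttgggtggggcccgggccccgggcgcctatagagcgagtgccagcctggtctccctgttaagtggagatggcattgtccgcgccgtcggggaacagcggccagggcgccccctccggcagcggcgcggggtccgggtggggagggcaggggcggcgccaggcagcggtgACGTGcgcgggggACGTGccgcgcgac
Pdk1, chr2:71872974-71873223, plus strand: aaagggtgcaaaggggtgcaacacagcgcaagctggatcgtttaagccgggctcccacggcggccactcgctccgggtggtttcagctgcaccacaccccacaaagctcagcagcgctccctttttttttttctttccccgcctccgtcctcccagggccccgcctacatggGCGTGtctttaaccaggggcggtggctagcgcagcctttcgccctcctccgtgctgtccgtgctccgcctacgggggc

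Pdk1 has a second RefSeq window, with 0 matches from 250 bases before to 50 after the start. Of the paralogs not printed, Hk1 has windows with 0 and 5 matches over that length, Pfkfb3 with 1 and 4, Pfkfb4 with 1 and Pdk3 with 4. The 4 windows printed, which include those of both lactate transporters, held 2, 4, 2 and 1 matches. In Slc16a1, CACGTG counts once on each strand. Counted from 250 bases before to 50 after the start, 37 of the 46 windows of 32 member genes held either core, or 80.4%, against 43.8% of all 32851 windows. The members' windows were also richer in G and C, with a median of 61.0% against 52.7%. CACGTG was found in 10.9% of the members' windows and 7.15% of all. A match is a run of letters and says nothing of whether a factor was bound in these cells.

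At the entry step, both glucose transporters had higher mean levels at 26°C, but the groups overlapped. Slc2a3 encodes GLUT3, a high-affinity glucose transporter. It lay at 146, 146 and 77.5 TPM at 37°C and at 311, 216 and 114 TPM at 26°C in replicates 1 to 3. It was higher in each of the 3 replicates, with a log2 fold change of 0.73 ± 0.42 (SE) and a limma adjusted p of 0.245. With the replicate as a block the adjusted p was 0.0326, but the change was short of the fold threshold. Slc2a1, which encodes GLUT1, the main carrier of activated T cells, lay at 33.4, 50.9 and 68.6 TPM at 37°C and at 117, 45.8 and 77.6 TPM at 26°C. Only replicate 1 had a difference of that kind, and the fold change of 0.60 ± 0.40 did not pass (adjusted p = 0.319 by limma). Summed, both transporters reached 174 ± 25.8 TPM (SD, n = 3) at 37°C and 294 ± 121 TPM at 26°C (exact permutation p = 0.2, two-sided, where 3 against 3 libraries cannot go below 0.1). The sum was higher at 26°C in each of the 3 replicates.

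The hexokinases phosphorylate glucose and so trap it in the cell. Hk1 is the constitutive form, and Hk2 is the inducible form that activated and tumour cells raise. Hk2 (chr6:82702004-82751437, GRCm39) lay at 7.14, 17.7 and 36.7 TPM at 37°C and at 95.2, 50.8 and 41.1 TPM at 26°C. Every cold-acclimated library was above every non-acclimated one, though in replicate 3 the difference was small. The log2 fold change of 1.73 ± 0.57 was the largest among the members in size, and limma gave an adjusted p of 0.0668. It passed after median of ratios scaling (2.11, adjusted p = 0.0427) and without replicate 3 (2.52, adjusted p = 0.0134, limma), a setting chosen after seeing the data. It did not pass with the replicate block (adjusted p = 0.0551) or after quantile normalization (adjusted p = 0.0534, limma). Leaving out single libraries gave a limma adjusted p of 0.029 to 0.201.

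Hk1 (chr10:62104634-62215699) went the other way, at 199, 308 and 226 TPM at 37°C and 92.2, 144 and 182 TPM at 26°C. Its groups did not overlap either, with a log2 fold change of -0.83 ± 0.31 (adjusted p = 0.0945, limma). With the block the adjusted p was 0.0312 (limma), but the change was short of the fold threshold. Under median of ratios scaling the change was -0.44 (adjusted p = 0.291, limma). Hk2 thus supplied 3.47%, 5.43% and 14.0% of the summed Hk1 and Hk2 level at 37°C and 50.8%, 26.1% and 18.4% at 26°C. This share does not depend on how libraries are scaled. The log2 ratio of Hk2 to Hk1 was higher at 26°C by 2.65 on average, and by 4.84, 2.62 and 0.48 within replicates 1, 2 and 3.

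Phosphofructokinase commits sugar to glycolysis, as a tetramer of liver (Pfkl), muscle (Pfkm) and platelet (Pfkp) type subunits. Pfkm (chr15:97990470-98030328) fell. It lay at 59.6, 55.3 and 48.5 TPM at 37°C and at 14.0, 12.9 and 28.0 TPM at 26°C, with a gap between the groups that was narrowest in replicate 3. The log2 fold change was -1.60 ± 0.32 (95% interval -2.36 to -0.85, adjusted p = 0.0175, limma). It also passed after median of ratios scaling (-1.22, adjusted p = 0.0311) and without replicate 3 (-2.02, adjusted p = 0.00381, limma). Leaving out single libraries gave a limma adjusted p of 0.0029 to 0.0723, and it missed the threshold without either library of replicate 1 or of replicate 2. Senp1, which encodes a SUMO protease, overlaps 2.90% of the Pfkm gene on the opposite strand and lay at 32.7 to 46.7 TPM at 37°C and 10.9 to 29.6 TPM at 26°C, and whether reads were counted by strand is not given in the sources used here.

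Pfkl lay at 41.5, 90.4 and 128 TPM at 37°C and at 25.6, 26.8 and 66.0 TPM at 26°C. It was lower at 26°C in each replicate, but the groups overlapped because the library of replicate 1 at 37°C was low. The log2 fold change was -1.11 ± 0.51 (adjusted p = 0.152 by limma, or 0.0188 with the replicate block). Under median of ratios scaling it was -0.72, with an adjusted p of 0.294, or 0.055 with the block (limma). Pfkp lay at 60.1, 42.0 and 58.3 TPM at 37°C and at 55.8, 42.6 and 75.0 TPM at 26°C, with a log2 fold change of 0.09 ± 0.28, or 0.48 after median of ratios scaling (-0.04 without replicate 3). The 3 subunits together summed to 195 ± 37.4 TPM at 37°C and 116 ± 46.8 TPM at 26°C (exact permutation p = 0.2), and the sum was lower at 26°C in each of the 3 replicates. Within that sum Pfkp made up 37.3%, 22.4% and 24.8% at 37°C and 58.5%, 51.8% and 44.3% at 26°C. Pfkm made up 37.0%, 29.4% and 20.6% at 37°C and 14.7%, 15.6% and 16.6% at 26°C. The groups of both shares stood apart, while those of the share of Pfkl overlapped. These shares were not tested, and how often shares of other genes stood apart was not counted.

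**Figure D3:**
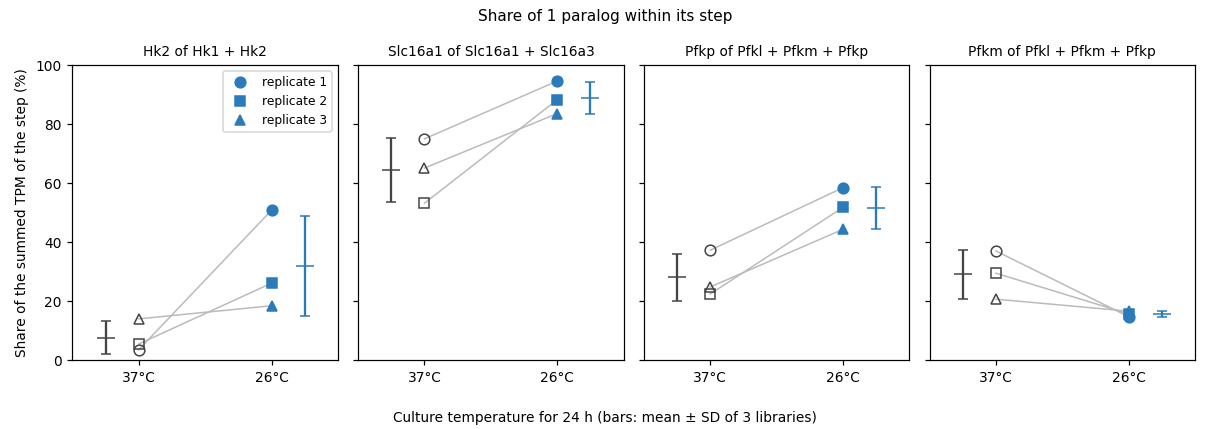
Share of 1 paralog in the summed TPM of its step, in percent, for Hk2, Slc16a1, Pfkp and Pfkm in each library. Grey lines join libraries with the same replicate number, and bars beside the points give the mean ± SD of 3 libraries. Each share of Hk2, Slc16a1 and Pfkp was higher at 26°C than any at 37°C, and each share of Pfkm was lower. The shares of Pfkl, Slc2a1 and Slc2a3 overlapped between the temperatures and are not drawn.

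The bifunctional PFKFB enzymes make and degrade fructose 2,6-bisphosphate, the strongest activator of phosphofructokinase. Pfkfb3, whose product favours synthesis, lay at 34.4, 36.7 and 29.3 TPM at 37°C and at 84.3, 101 and 39.8 TPM at 26°C. Its groups did not overlap, and the log2 fold change was 1.04 ± 0.36 (adjusted p = 0.0755, limma). It passed after median of ratios scaling (1.44, adjusted p = 0.045), with the replicate block (adjusted p = 0.0227) and without replicate 3 (1.35, adjusted p = 0.0084, limma). It did not pass after quantile normalization (adjusted p = 0.059, limma), and leaving out single libraries gave a limma adjusted p of 0.00629 to 0.223. Pfkfb4 was scarce, at 2.72, 3.53 and 2.46 TPM at 37°C and 1.03, 0.992 and 2.27 TPM at 26°C, from 44 to 146 reads a library. Its log2 fold change was -0.71 ± 0.32 (adjusted p = 0.148, limma). The log2 ratio of Pfkfb3 to Pfkfb4 was higher at 26°C by 2.18. Summed, the pair reached 36.4 ± 4.28 TPM at 37°C and 76.5 ± 30.9 TPM at 26°C, with groups apart (exact permutation p = 0.1, the smallest possible).

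Gpi1 and Aldoa complete the upper steps. Gpi1, the isomerase after hexokinase, lay at 355, 406 and 380 TPM at 37°C and at 409, 345 and 338 TPM at 26°C, with a log2 fold change of -0.07 ± 0.21 (0.33 after median of ratios scaling). Aldoa, the aldolase of most tissues, was listed at 1.49 to 5.72 TPM, from 28 to 95 reads. Its whole gene span lies inside a second gene on the same strand, Gm57854, itself at 0.948 to 4.49 TPM, so its level is uncertain. Aldoc, a brain-type aldolase, was at 0 to 0.784 TPM and was not tested.

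The steps from triose phosphate to pyruvate held the most abundant members, and none of these 7 passed. Pgk1, which makes the first ATP of glycolysis, lay at 799, 1378 and 1261 TPM at 37°C and 1063, 1019 and 1413 TPM at 26°C. Pkm, pyruvate kinase, lay at 584, 818 and 745 TPM at 37°C and 871, 794 and 907 TPM at 26°C. Their log2 fold changes were 0.05 ± 0.29 for Pgk1 and 0.27 ± 0.23 for Pkm, with limma adjusted p of 0.926 and 0.429. The 95% intervals, -0.63 to 0.72 and -0.26 to 0.80, leave out a 2-fold change in either direction in TPM. After median of ratios scaling the intervals were -0.17 to 1.06 for Pgk1 and 0.17 to 1.18 for Pkm, so that a 2-fold higher level was not left out.

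Of the other 5 genes of these steps, Eno1 (enolase) ranged from 208 to 549 TPM, Tpi1 (triose phosphate isomerase) from 308 to 573 TPM and Pgam1 (phosphoglycerate mutase) from 116 to 315 TPM. Eno2, the neuronal enolase, was lower, at 3.53 to 18.2 TPM, with its lowest values in both libraries of replicate 3. Their log2 fold changes lay between -0.24 (Eno2) and 0.28 (Pgam1) in TPM, and between 0.13 and 0.68 after median of ratios scaling. All 7 members of the branch were above the all-gene median under both scalings. After quantile normalization, and with no filter on low values, 5 of the 7 were. Summed, the branch took 2951 ± 750 TPM at 37°C and 3131 ± 397 TPM at 26°C (exact permutation p = 0.8, two-sided), with the library of replicate 1 at 37°C lowest at 2085 TPM.

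Gapdh, the dehydrogenase often used as a reference gene, was listed at only 18.8, 20.7 and 14.2 TPM at 37°C and at 66.9, 11.9 and 9.52 TPM at 26°C. The library of replicate 1 at 26°C stood apart from the other 5, and the log2 fold change of 0.17 ± 0.66 had the largest SE among the tested members. In GRCm39, 88.2% of the bases of its canonical transcript recur elsewhere in stretches of at least 150 bases and 98% identity, in 32 places. The same holds for 96.4% of Pgam1, 95.7% of Pgk1, 75.7% of Eno1 and 45.7% of Gpi1, and for none of the other 28 members. The 11 Gapdh pseudogenes listed in the table summed to 7.28 to 11.7 TPM. How reads that match several places were counted is not given in the sources used here, so the levels of these 5 genes are uncertain. The sums of their branches are uncertain for the same reason.

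**Figure D4:**
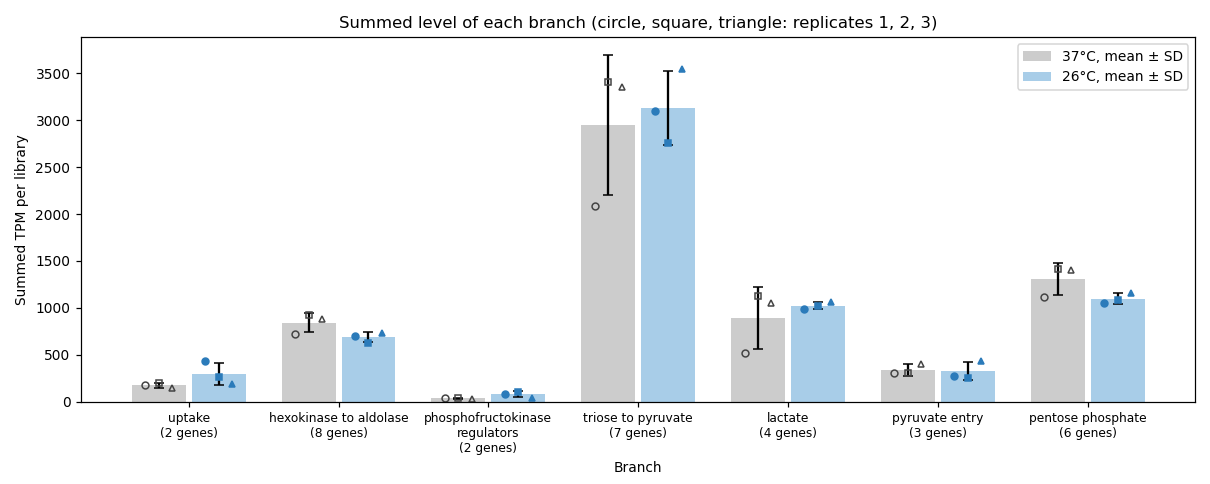
Summed TPM of the members of each branch in each library. Bars are means, error bars are SD of 3 libraries and symbols are single libraries (circle, square and triangle for replicates 1, 2 and 3). In TPM only the groups of the phosphofructokinase regulators stood apart, with 26°C higher, while after median of ratios scaling the sums of uptake, those regulators, triose to pyruvate, lactate and pentose phosphate were higher in every cold-acclimated library. That scaling also shifts the sum of all genes toward 26°C, which in TPM is the same in every library.

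The gene for lactate formation did not pass. The mean levels of the genes for both lactate exporters differed in opposite directions. Neither exporter was called in TPM with all libraries and no replicate block. Ldha, the lactate dehydrogenase subunit that favours lactate, lay at 394, 818 and 763 TPM at 37°C and at 694, 681 and 795 TPM at 26°C, with a log2 fold change of 0.20 ± 0.32 (95% interval -0.54 to 0.94). Ldhb, the heart-type subunit, had 1 read in 1 library and 0 in the other 5, where 3 reads would have been worth up to 0.671 TPM. These counts put the lactate dehydrogenase transcripts of D10 cells almost wholly on Ldha at both temperatures.

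Slc16a1 encodes MCT1, a proton-linked carrier of lactate and pyruvate found in most cells, and Slc16a3 encodes MCT4, the carrier of strongly glycolytic cells. Slc16a1 (chr3:104545980-104565778) lay at 91.0, 162 and 185 TPM at 37°C and at 276, 299 and 220 TPM at 26°C, with no overlap. Its log2 fold change was 0.90 ± 0.31 (adjusted p = 0.0757, limma), or 1.30 after median of ratios scaling (adjusted p = 0.0316, limma). With the replicate block the adjusted p was 0.0435, but the change of 0.90 was short of the fold threshold. Without replicate 3 the adjusted p was 0.0314 (limma). It did not pass after quantile normalization (adjusted p = 0.0805, limma), and leaving out single libraries gave a limma adjusted p of 0.0582 to 0.208.

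Slc16a3 (chr11:120839310-120849826) lay at 30.3, 143 and 99.3 TPM at 37°C and at 15.6, 39.6 and 43.1 TPM at 26°C. It was lower in each replicate, by -0.91, -1.83 and -1.19 on the log2 scale, although the low library of replicate 1 at 37°C made the groups overlap. The log2 fold change was -1.31 ± 0.62, with an adjusted p of 0.164 without and 0.0106 with the replicate block (limma). Median of ratios scaling gave -0.92 (adjusted p = 0.291, or 0.0258 with the block, limma), under the fold threshold. Slc16a1 held 75.0%, 53.2% and 65.1% of the summed transporter level at 37°C and 94.6%, 88.3% and 83.6% at 26°C. Its log2 ratio to Slc16a3 was higher at 26°C by 2.25, and by 2.56, 2.73 and 1.45 within replicates 1, 2 and 3. Csnk1d, a casein kinase gene, overlaps 12.3% of Slc16a3 on the opposite strand.

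At the entry of pyruvate into the mitochondrion, the kinase Pdk1 fell. Pyruvate dehydrogenase kinases phosphorylate and silence the pyruvate dehydrogenase complex. Pdk1 (chr2:71703398-71734202) lay at 15.0, 15.5 and 11.3 TPM at 37°C and at 5.14, 7.96 and 5.26 TPM at 26°C, from 295 to 900 reads, and the groups did not overlap. The log2 fold change was -1.08 ± 0.28 (adjusted p = 0.0337, limma), which was 0.74 below the all-gene median on the log2 scale. The call was lost after median of ratios scaling (-0.72, adjusted p = 0.118, limma), and leaving out single libraries gave an adjusted p of 0.0399 to 0.127, missing the threshold without any of the 4 libraries of replicates 1 and 2.

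Pdk3, another kinase of the family, lay at 24.9, 28.9 and 16.0 TPM at 37°C and at 16.6, 22.3 and 18.0 TPM at 26°C (log2 fold change -0.25 ± 0.29, or 0.13 after median of ratios scaling). The log2 ratio of Pdk1 to Pdk3 was lower by 0.94 at 26°C, with every library at 26°C below those at 37°C. Pdha1, the catalytic subunit that these kinases act on, lay at 260, 260 and 378 TPM at 37°C and at 255, 225 and 409 TPM at 26°C (-0.04 ± 0.30, or 0.36 after median of ratios scaling).

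Of the 10 pairs of paralogs at 1 step, 8 had values above 0 in every library for both genes, and 4 of these had ratios that did not overlap between the temperatures: Hk2 to Hk1, Pfkfb3 to Pfkfb4, Slc16a1 to Slc16a3 and Pdk1 to Pdk3. Each of the 4 had an exact permutation p of 0.1, the smallest that 3 against 3 libraries allow, and 0.2 after adjustment over the 8 pairs. No pair could pass at this size. Taken singly, 9.69% of all tested genes had groups apart with 26°C higher and 31.4% with 26°C lower. How often the ratios of other gene pairs stood apart was not counted, so the 4 pairs have no background. The ratio of Pfkp to Pfkl was higher by 1.23 (p = 0.2, exact), and higher in each of the 3 replicates, and those of Slc2a1 to Slc2a3, Pfkm to Pfkl and Eno1 to Eno2 differed by -0.13, -0.53 and 0.54 (exact p of 0.8, 0.6 and 0.6). A ratio shows that 2 genes changed unequally and not which of them changed.

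**Figure D5:**
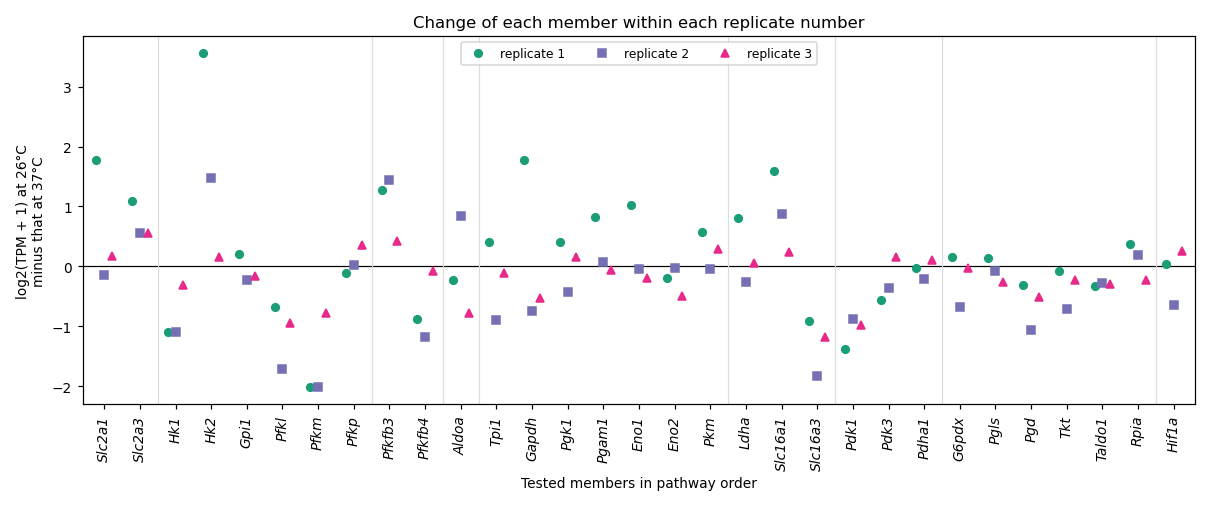
Difference in log2(TPM + 1) between 26°C and 37°C for each tested member within replicate 1 (circles), 2 (squares) and 3 (triangles). Replicates 1 and 2 held 10 and 8 members with a difference of at least 1 in size, and replicate 3 held 1, Slc16a3. TPM differences are not corrected for the all-gene median, which was -0.32, -0.44 and -0.24 in the 3 replicates.

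The size of the response differed between replicates. The median size of the members' log2 differences was 0.58 in replicate 1, 0.65 in replicate 2 and 0.26 in replicate 3, beside 0.68, 0.74 and 0.47 over all tested genes. Replicate 3 is the one in which Cd4 was present and in which Mki67 was 163 TPM at 37°C and 173 TPM at 26°C, while Top2a was 483 and 278 TPM. In total 14 members moved in 1 direction in all 3 replicates, 4 of them higher (Slc2a3, Hk2, Pfkfb3 and Slc16a1) and 10 lower. These shares, 12.9% and 32.3% of the tested members, were below the 18.2% and 47.9% of all tested genes that moved higher or lower in all 3 replicates. Among the 10 lower were Eno2, Tkt and Taldo1, whose fold changes turned sign after median of ratios scaling.

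Of the 6 pentose phosphate genes 5 had a lower mean TPM at 26°C, and none passed. Tkt and Taldo1, transketolase and transaldolase of the non-oxidative arm, were the most abundant. Taldo1 lay at 407, 432 and 401 TPM at 37°C and at 324, 357 and 325 TPM at 26°C, so that the groups stood apart by a small and even step in each replicate (-0.30 ± 0.20, or 0.10 after median of ratios scaling, where the sign turned). Tkt lay at 320, 440 and 525 TPM at 37°C and at 305, 269 and 450 TPM at 26°C (-0.33 ± 0.29, or 0.06 after median of ratios scaling).

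In the oxidative arm, which makes NADPH, Pgd (6-phosphogluconate dehydrogenase) lay at 59.7, 97.2 and 133 TPM at 37°C and at 47.6, 46.0 and 92.7 TPM at 26°C, lower in each replicate (-0.63 ± 0.39, adjusted p = 0.277, limma). G6pdx, the first and rate-limiting enzyme, ranged from 44.2 to 108 TPM (-0.18 ± 0.34, or 0.21 after median of ratios scaling), and the gene Ikbkg spans all of it on the opposite strand. Pgls, the lactonase, ranged from 125 to 211 TPM and Rpia, the ribose isomerase, from 86.5 to 144 TPM. The branch summed to 1307 ± 170 TPM at 37°C and 1097 ± 57.6 TPM at 26°C (exact permutation p = 0.2), lower in each replicate. The order turned after median of ratios scaling, with means of 1119 and 1242 and groups apart (exact permutation p = 0.1). That scaling also shifts the sum of all genes toward 26°C, which in TPM is the same in every library.

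All 33 members together took 0.689% of the TPM at 37°C and 0.695% at 26°C, from 5261, 7765 and 7632 TPM and from 6932, 6327 and 7598 TPM in single libraries (exact permutation p = 1). After median of ratios scaling every cold-acclimated sum was above every non-acclimated one, at means of 7863 and 5888 (exact permutation p = 0.1, the smallest this design allows). TPM adds up to the same total in every library, so this scaling shifts the sum of all genes in the same direction. The scaled sums were not set against that shift. All these sums hold Aldoa, Gapdh, Pgk1, Pgam1, Eno1 and Gpi1, whose levels are uncertain, so the share of the pathway is uncertain too.

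Hif1a itself, the oxygen-regulated subunit of HIF-1, lay at 310, 355 and 365 TPM at 37°C and at 319, 226 and 435 TPM at 26°C, and did not pass (-0.12 ± 0.28, or 0.28 after median of ratios scaling). Its protein is controlled mainly by degradation, which these data do not measure. From a list of 28 genes of the HIF-1 pathway and glucose sensing, 22 were tested and 3 were called lower, which is 13.6% beside the background of 16.0%. These calls too became 0 with no filter, and without any 1 of the 4 libraries of replicates 1 and 2. The share of all genes called lower was then 5.29% with no filter and 2.82% to 4.91% without those libraries. The 3 called lower were Bnip3, a mitophagy receptor (log2 fold change -1.19 ± 0.29, adjusted p = 0.0293, limma), Fam162a (-2.06 ± 0.51, adjusted p = 0.0308) and the carbonic anhydrase Car9 (-1.09 ± 0.30, adjusted p = 0.0394). After median of ratios scaling Fam162a alone of these stayed called (-1.67, adjusted p = 0.0468, limma).

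Vhl, whose product marks HIF-1 for degradation, lay at 35.1, 36.0 and 23.9 TPM at 37°C and at 65.8, 64.9 and 50.8 TPM at 26°C. It rose by 0.93 ± 0.25 on the log2 scale (adjusted p = 0.0406, limma), just under the fold threshold, and was called higher after median of ratios scaling (1.32, adjusted p = 0.0217, limma). Leaving out single libraries gave a limma adjusted p of 0.0271 to 0.137 for Vhl. Txnip, an arrestin that responds to glucose, had a log2 fold change of 1.36 (adjusted p = 0.0676), and after median of ratios scaling it was called higher as well (1.76, adjusted p = 0.0401, limma). Going the other way were Ndrg1 (-2.04, adjusted p = 0.0668, limma), Ddit4 (-1.36) and Mlx (-1.01). With the replicate block Txnip was called higher, and Ndrg1, Ddit4 and Mlx lower. Ndrg1, Ddit4 and Mlx were not called after median of ratios scaling without the block. Higd1a and Egln3 were higher in each of the 3 replicates, by 0.45 and 0.40 on the log2 scale (adjusted p = 0.23 and 0.272, limma). After median of ratios scaling they changed by 0.85 and 0.80 (adjusted p = 0.0417 and 0.0563, limma), short of the fold threshold. The list's median was -0.14 in TPM and 0.22 after median of ratios scaling, with 13 of the 22 tested genes above the all-gene median under both. Vegfa and Adm, secreted HIF-1 targets, were listed at 0 TPM in all 6 libraries.

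From a list of 49 further genes of the same pathways, 32 were tested, 0 were called higher and 3 lower, or 9.38%, beside a background of 2.63% higher and 16.0% lower, with a median log2 fold change of -0.40. The 3 calls became 0 with no filter on low values, and when any of the 4 libraries of replicates 1 and 2 was left out. The share of all genes called lower was then 5.29% with no filter and 2.82% to 4.91% without those libraries. Pdpr, the regulatory subunit of the phosphatase that reactivates pyruvate dehydrogenase, lay at 21.5, 25.2 and 22.5 TPM at 37°C and at 3.10, 2.47 and 10.8 TPM at 26°C (-2.12 ± 0.46, adjusted p = 0.0211, limma). Rpe, the epimerase of the pentose phosphate pathway, lay at 93.1, 98.5 and 101 TPM at 37°C and at 18.8, 16.4 and 53.5 TPM at 26°C (-1.89 ± 0.43, adjusted p = 0.023, limma). Slc2a6, a transporter of the GLUT family, lay at 32.1, 21.8 and 16.7 TPM at 37°C and at 5.62, 5.09 and 10.4 TPM at 26°C (-1.62 ± 0.35, adjusted p = 0.0214, limma). Each of the 3 had groups that did not overlap and stayed called after median of ratios scaling.

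Pdp2, a catalytic subunit of the same phosphatase, fell by 0.87 on the log2 scale (adjusted p = 0.0388, limma), short of the fold threshold, and by 0.50 after median of ratios scaling (adjusted p = 0.169). Pdp1, the other catalytic subunit of that phosphatase, had a log2 fold change of 0.32 ± 0.29 (adjusted p = 0.465, limma). Of the further enolases, Eno3 lay at 158 to 329 TPM and Eno1b at 59.0 to 185 TPM, neither passing. As 75.7% of the Eno1 transcript recurs elsewhere, reads of Eno1 may be counted at other places. Whether the level of Eno1b holds such reads was not tested. Hk3, Pklr, Ldhc, Pdk2 and Pdk4, forms typical of other tissues, had a mean under 1 TPM and were not tested.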

How the data were processed

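Poly(A)+ RNA of D10 cells was made into strand-specific libraries. Per the labels, the submitters' processing notes name FastQC 0.11.7, Trimmomatic 0.38, HISAT2 2.1.0, featureCounts 1.6.3 and GRCm39. How strand and multi-mapping reads were handled in counting was not given in the sources used here. The authors deposited TPM, and every value for all 21195 genes above 0 was a whole number of reads times a step (tolerance 1e-06 reads). From these steps the reads counted on genes in each library were recovered. limma 3.58.1 (R 4.3.3, mean-variance trend) was fitted to log2(TPM + 1) over the 12227 genes averaging 1 TPM or more, with Benjamini-Hochberg adjustment, and checked on simulated data. Ratios and sums were tested by exact two-sided permutation over libraries. Alternatives were scaling, pseudocount, filter, the replicate block, voom on recovered reads and left-out libraries. Deviations of same-numbered libraries from their group means correlated at 0.48, 0.50 and 0.51, against -0.41 to 0.02 otherwise, so the numbers pair the libraries. The study describes the replicates as prepared independently of each other. Copies were sought with blastn 2.17.0. Python 3.11.15, pandas 2.3.3, scipy 1.17.1 and matplotlib 3.10.9 were used. Members reaching an adjusted p under 0.05, the 5 largest changes in each direction and the most abundant member of each step get values in every library. From the list of further pathway genes, those with an adjusted p under 0.05 are named. Other genes, those of the HIF-1 list included, were chosen after their values were seen. Some listed genes are not reported here. The members, lists and rules were chosen with earlier results of these data known.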

Additional observations from a re-analysis of the deposited data

How the results depend on the processing

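In TPM 321 genes were called higher at 26°C and 1954 lower, whereas the study normalized its read counts by median of ratios. The counts were 802 and 1075 after median of ratios scaling, 767 and 1122 with voom on recovered reads, 184 and 1121 with no filter, 731 and 765 after quantile normalization, 1086 higher with the replicate block and median of ratios scaling together, and 653 and 3088 with both libraries of replicate 3 left out, a setting chosen after seeing the data. Leaving out single libraries gave 59 to 459 higher and 345 to 2725 lower. With replicate pairs as a block the counts were 458 and 2679.

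Of the members, 0 were called higher and 2 lower in TPM. These became 3 and 1 after median of ratios scaling and with voom, 1 and 4 with the replicate block, 4 and 1 with both together, 3 and 4 without replicate 3, and 0 and 1 with no filter and after quantile normalization. Leaving out single libraries gave 0 to 1 higher and 0 to 3 lower. The members' median log2 fold change moved from -0.07 to 0.33 after median of ratios scaling, with or without the block, and to 0.33 with voom. After quantile normalization it was 0.06, beside 0.03 for all genes, with 16 of 31 members above the all-gene median.

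Small changes below the threshold turned sign. After median of ratios scaling, with or without the block, they were Gpi1 0.33, Aldoa 0.23, Tpi1 0.20, Eno2 0.13, Pdk3 0.13, Pdha1 0.36, G6pdx 0.21, Pgls 0.33, Tkt 0.064, Taldo1 0.10 and Hif1a 0.28. With voom they were Gpi1 0.34, Aldoa 0.21, Tpi1 0.20, Eno2 0.15, Pdk3 0.14, Pdha1 0.36, G6pdx 0.21, Pgls 0.33, Tkt 0.066, Taldo1 0.10 and Hif1a 0.28. After quantile normalization they were Aldoa 0.53, Pgk1 -0.11, Eno2 0.35, Pdk3 0.22 and G6pdx 0.056, and without replicate 3 Pfkp -0.044, Aldoa 0.30, Pgk1 -0.011 and Pgls 0.026. The summed levels that turned under median of ratios scaling were hexokinase to aldolase (53.4 higher at 26°C), pyruvate entry (70.3), pentose phosphate (123) and the hexokinase step (1.90). This scaling shifts the sum of all genes the same way.

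Leaving out single libraries, log2 fold changes ranged from -0.11 to 0.29 for Pfkp, -0.50 to 0.21 for Aldoa, -0.68 to 0.67 for Gapdh, -0.19 to 0.20 for Pgk1, -0.10 to 0.61 for Pgam1, -0.13 to 0.57 for Eno1, -0.73 to 0.39 for Eno2, -0.13 to 0.40 for Ldha, -0.30 to 0.14 for Pdha1, -0.48 to 0.15 for G6pdx, -0.21 to 0.16 for Pgls, -0.069 to 0.20 for Rpia and -0.35 to 0.12 for Hif1a. The log2 ratio of Slc2a1 to Slc2a3 ranged from -0.55 to 0.42 and that of Eno1 to Eno2 from -0.26 to 1.40. The summed difference ranged from -253 to 411 TPM for triose to pyruvate, -64.1 to 240 for lactate, -70.6 to 19.1 for pyruvate entry and -747 to 506 for all members. The causes were not tested.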
